A study of Mus musculus with 6 samples.

Results

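Distal chromosome 13 of the mouse was described by its splicing events in 6 RNA-seq libraries of N2a (Neuro-2a), a line derived from a mouse neuroblastoma. By their labels, 3 of the libraries are hnRNP DL-/-, from cells without a working gene for the RNA-binding protein hnRNP DL, and 3 are wild type. The labels do not say whether the knockout is 1 clone or a pool. The deposited table holds 2 sets of 3 libraries and ties neither to a genotype, so they are called set 1 and set 2 and every difference is set 1 minus, or over, set 2. The members are all splicing events on chromosome 13 whose exon coordinates lie at or above 70 Mb (70000000) of build mm10. The rule gave 636 of the 45595 events in the table, in 128 of its 9594 genes, between bases 70606756 and 119782910, and no event of the chromosome lay across the boundary. The region was chosen by earlier results of these same libraries, namely the junction totals and inclusion levels of set 1 against set 2. Those values are therefore given below as a description, with no test read from them.

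A splice junction read spans the border of 2 exons and comes from spliced RNA. For a retained intron, the inclusion reads come instead from RNA that keeps the intron. The reads of an event divide into an inclusion form, which holds the alternative exon or stretch, and a skipping form, which lacks it. For mutually exclusive exons, the 2 forms each hold a different exon of the pair. The inclusion level is the share of the inclusion form after scaling for the length of each form, so it does not move when both forms gain or lose reads in proportion. The junction total, inclusion plus skipping reads, follows instead how much RNA of the gene was sequenced at that event. In bulk RNA of this kind, fewer cells that express a gene and less RNA per cell cannot be told apart.

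Of the members, 472 were skipped exons, 85 pairs of mutually exclusive exons, 36 alternative 3' splice sites, 22 retained introns and 21 alternative 5' splice sites. Skipped exons made up 74.2% of the distal events, 74% of the 857 events in 198 genes on the proximal part of the chromosome and 72.5% of events on all other chromosomes. Their median length was 112 bases in the distal region and 113 bases on the other chromosomes. A length that is a multiple of 3, which leaves the reading frame after the exon as it was, was found for 39.6% of distal skipped exons and 40.8% of those on other chromosomes. Exons that lie wholly within coding sequence of some transcript in GENCODE vM21 (GRCm38, the assembly of mm10) made up 82% and 80%. By kind, length and coding share, the distal events thus resembled the rest of the table. Of the 128 genes, 127 were matched in that annotation by their ID, and 122 of them are protein coding.

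The exons below carry the results on splicing. The first 3 belong to events with an adjusted p under 0.05 in the authors' deposited table and a change of 0.10 or more. The other 6 were chosen after their values were seen, as the coding skipped exons with many reads of both forms. Each is written 5' to 3' on the strand of its gene, on GRCm38, from the GENCODE vM21 transcripts. In Fam172a, capitals mark the 80 bases that only the longer form of the exon holds, after 112 bases that both forms share. In the others they mark the last 3 bases, which border the 5' splice site of the next intron.
Fam172a, chr13:77834510-77834701, plus strand, 192 bases: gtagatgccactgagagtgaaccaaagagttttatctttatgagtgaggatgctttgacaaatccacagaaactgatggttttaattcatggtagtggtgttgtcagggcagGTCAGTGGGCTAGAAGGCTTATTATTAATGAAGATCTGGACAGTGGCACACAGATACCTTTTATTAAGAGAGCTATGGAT
Fam151b, chr13:92473963-92474128, minus strand, 166 bases: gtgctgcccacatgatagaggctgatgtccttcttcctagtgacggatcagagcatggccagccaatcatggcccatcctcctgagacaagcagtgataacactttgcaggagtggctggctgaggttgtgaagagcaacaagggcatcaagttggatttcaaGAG
Adamts6, chr13:104413708-104413810, plus strand, 103 bases: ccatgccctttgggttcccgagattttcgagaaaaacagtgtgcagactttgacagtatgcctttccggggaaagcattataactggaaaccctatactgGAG
Ssbp2, chr13:91642302-91642391, plus strand, 90 bases: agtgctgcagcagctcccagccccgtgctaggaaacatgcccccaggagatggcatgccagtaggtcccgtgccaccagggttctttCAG
Trappc13, chr13:104152165-104152182, minus strand, 18 bases: agtgacctcagttctGTG
Ccnh, chr13:85196252-85196325, plus strand, 74 bases: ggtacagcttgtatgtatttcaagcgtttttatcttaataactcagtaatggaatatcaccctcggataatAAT
Col4a3bp, chr13:96616994-96617071, plus strand, 78 bases: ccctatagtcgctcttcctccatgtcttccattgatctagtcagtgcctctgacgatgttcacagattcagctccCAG
Cenph, chr13:100761761-100761924, minus strand, 164 bases: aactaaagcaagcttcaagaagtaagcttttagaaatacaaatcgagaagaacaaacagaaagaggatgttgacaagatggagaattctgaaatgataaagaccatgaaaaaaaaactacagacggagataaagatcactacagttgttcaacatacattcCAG
Mocs2, chr13:114819336-114819457, plus strand, 122 bases: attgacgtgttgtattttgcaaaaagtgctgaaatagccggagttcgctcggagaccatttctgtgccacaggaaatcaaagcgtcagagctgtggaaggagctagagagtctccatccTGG

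Junction reads summed over all events came to between 13501749 and 18185394 per library, with a read counted once for each event it supports. The level of the targeted gene cannot be tied to a genotype here. Hnrnpdl had 399, 429 and 433 CPM (junction counts of the gene scaled by the library's sum) in set 1, against 469.7, 502 and 502 CPM in set 2, so its junctions were read in both sets. Of 18 listed markers of neuroblastoma cells and neurons, 8 were in the table and all 8 had a mean of 20 or more reads, among them Chga with 696 to 940 reads per library and Elavl4 with 536 to 758 reads. Markers of other cell types were at or near 0: the table held none of the 3 listed astrocyte and 3 fibroblast markers, Cd68 of microglia had 0 to 2 reads, Mbp of oligodendrocytes 4 to 8 reads and Pecam1 of endothelium 1 to 15 reads. Outside the distal region, the first-listed libraries of both sets were close to each other, with a median absolute difference of 0.17 on the log2 scale, and each stood 0.22 to 0.25 from the other 4. The labels give no batch and the columns no replicate number. Since library 1 of set 1 also stands apart in the distal region, results are given with and without it.

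The distal region took a smaller share of the junction reads in set 1 than in set 2. Its 636 events held 1.18%, 0.874% and 0.788% of all junction reads in the libraries of set 1, against 1.28%, 1.34% and 1.33% in the libraries of set 2. Every library of set 1 was thus below every library of set 2, and library 1 of set 1 lay between the others and set 2. Taken gene by gene, with the event that held the most reads standing for its gene, 116 of the 128 genes had a mean of 20 or more reads and were measured. The other 12, with means from 1.17 to 16.3 reads, were not, and they include Vcan, Edil3, Mast4, Fam151b and Adamts6. Of the 116 measured genes, 107 had a log2 ratio of set 1 over set 2 below 0, and 9 one above 0. The median log2 ratio was -0.58, a ratio of 0.668, and the lower and upper quartiles were -0.78 and -0.39. Values are log2(CPM + 1), which understates differences of genes with few reads.

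The 3 libraries of set 1 differed among themselves. Relative to the mean of set 2, the median distal gene stood at -0.21, -0.71 and -0.83 on the log2 scale in libraries 1, 2 and 3 of set 1, against -0.05, 0.03 and 0.03 in those of set 2. For 98 of the 116 genes library 1 was the highest of set 1. Without it the median log2 ratio was -0.80, and without the first-listed library of both sets -0.82. The median gene of the proximal part stood at 0.05, 0.05 and 0.08 in set 1, against -0.02, -0.02 and 0.04 in set 2, and that of all other chromosomes between -0.01 and 0.04 in set 1 and between -0.01 and 0.01 in set 2. Between the first-listed libraries alone, set 1 over set 2, the median distal log2 difference was -0.13, and between libraries 2 and 3 of the sets it ran from -0.85 to -0.70. The part of what sets the first-listed libraries apart in these values was not tested.

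**Figure D1:**
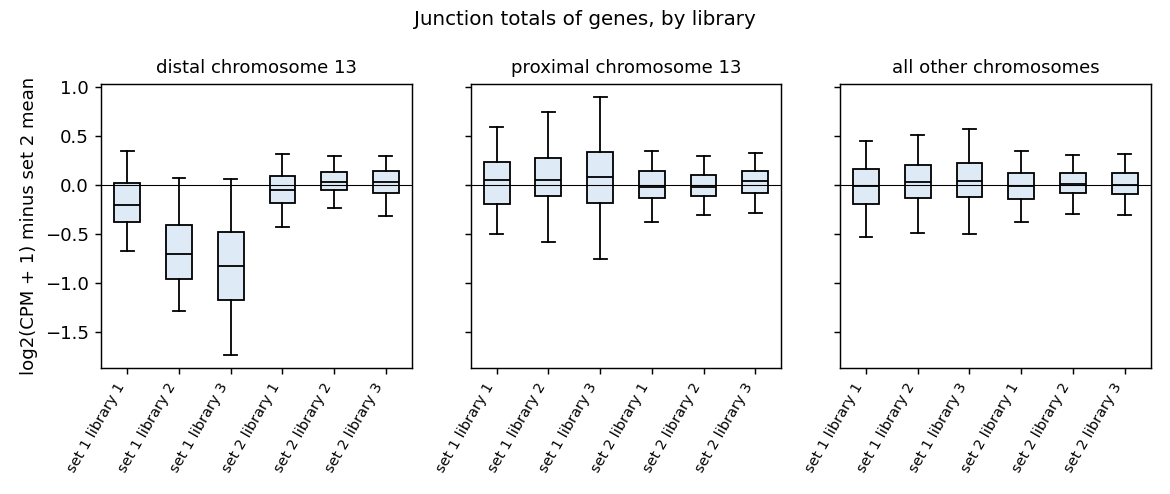
Junction totals of genes in each library, as log2(CPM + 1) minus the mean of set 2, for 116 distal genes, 171 proximal genes and 7998 genes of the other chromosomes. Boxes span the quartiles with the median as a line, and whiskers run from the 5th to the 95th percentile; the distal medians of set 1 lie at -0.21, -0.71 and -0.83, and all other medians between -0.05 and 0.08.

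The call rules give the following counts, which rest on the contrast that chose the region and support nothing. With limma at an adjusted p under 0.05 over all 8285 measured genes, 11 distal genes (9.48%) were called lower in set 1, where the share over all genes was 0.471%, and 0 were called higher, where it was 0.591%. At an unadjusted p under 0.05, 79 distal genes (68.1%) were lower in set 1, against 4.55% of all genes. In 58 distal genes (50%) all 3 libraries of set 1 lay below all 3 of set 2, against 6.67% of all genes. In 2 (1.72%), Mccc2 and Smn1, all 3 lay above, against 7.4% of all genes. The count of 11 turned on single libraries: it was 64 without library 1 of set 1, 0 without library 2 and 1 without library 3 of set 1, where the share of all genes called lower was 1.98%, 0.0844% and 0.193%. It was 12, 0 and 1 without libraries 1, 2 and 3 of set 2, where that share was 0.376%, 0.0844% and 0.169%. In libraries 2 and 3 of set 1 alone, 95 of the 116 genes (81.9%) had both totals below all of set 2, against 13.8% of all genes.

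The 2 lowest ratios belonged to Fst and Tert. Fst encodes follistatin, a secreted protein that binds and blocks activins. It had 14.5, 4.27 and 2.95 CPM in set 1, against 24, 31.8 and 45.9 CPM in set 2, a log2 ratio of -2.30 ± 0.41 (SE). The sets did not overlap, and the highest value of set 1 was that of library 1. Tert, the reverse transcriptase subunit of telomerase, had 2.78, 0.712 and 0.984 CPM in set 1, against 9.14, 7.26 and 8.39 CPM in set 2, a log2 ratio of -1.98 ± 0.36 (SE). Its values come from a retained-intron event with few reads, 14, 3 and 4 in set 1 against 50, 31 and 34 in set 2. The mean inclusion level of that event was 0.867 in set 1 and 0.947 in set 2. The form that keeps the intron thus made up most of it, and the total is not one of spliced RNA. Every library of set 1 was below every library of set 2 for Tert as well.

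The other 9 genes that the limma call took in had ratios closer to the median of the region. Polr3g, a subunit of RNA polymerase III, had 58.1, 42 and 34.9 CPM in set 1, against 86.5, 101 and 89.8 CPM in set 2, a log2 ratio of -1.05 ± 0.17 (SE). Sdha, the flavoprotein subunit of succinate dehydrogenase, had 243, 146 and 133 CPM in set 1, against 276, 340.1 and 338 CPM in set 2. In both genes library 1 of set 1 was the nearest to set 2. Enc1, an actin-binding Kelch protein of neural tissue, differed in this respect, with 363, 336 and 367 CPM in set 1, against 467, 540.3 and 581 CPM in set 2. All 3 libraries of set 1 were alike there, with a log2 ratio of -0.57 ± 0.10 (SE). The remaining 6 were Clptm1l at a log2 ratio of -0.99, Pdcd6 at -0.86, Cetn3 (centrin 3) at -0.80, Atg10, which conjugates ATG12 in autophagy, at -1.03, Ssbp2 at -0.73 and Tbca, a tubulin folding cofactor, at -0.84.

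Among the remaining genes of the 12 lowest, Ttc37, a subunit of the Ski complex that works with the RNA exosome, had a log2 ratio of -1.39 ± 0.35 (SE), with 24.6, 15.4 and 6.15 CPM in set 1, against 37.3, 31.6 and 42 CPM in set 2. Exoc3, a subunit of the exocyst, stood at -1.17 and the gene CT009718.1 at -1.19. Zfp825 stood at -1.03 and Cast, which encodes the calpain inhibitor calpastatin, at -0.99. Back on the linear scale, Depdc1b stood at a ratio of 0.498 and the zinc transporter Slc30a5 at 0.5. The libraries of set 1 reached into the range of set 2 in Cast and Depdc1b: Depdc1b had 65.1, 22.1 and 21.2 CPM in set 1, against 71.1, 62.3 and 58.7 CPM in set 2. In Depdc1b that overlap came from library 1 of set 1 alone.

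The 10 genes with the most reads gave the closest counts. Btf3, which encodes a subunit of the nascent polypeptide-associated complex, had 2239.9, 1338 and 1126 CPM in set 1, against 2644, 2578 and 2475 CPM in set 2, a mean of 1568 ± 592 CPM in set 1 and 2566 ± 85.3 CPM in set 2 (SD, n = 3 each). The spread was wider within set 1, where library 1 was near set 2. Ndufs4, a subunit of respiratory complex I, had 341, 159 and 151 CPM in set 1, against 387, 373 and 346 CPM in set 2. Tbca had 329.9, 203 and 188 CPM in set 1, against 399.9, 409.9 and 446 CPM in set 2. In these genes libraries 2 and 3 of set 1 lay far below every other library. Map1b, a microtubule-associated protein of neurons, was closer, with 481, 418 and 420.3 CPM in set 1, against 478, 603 and 596 CPM in set 2, and the sets overlapped.

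**Figure D2:**
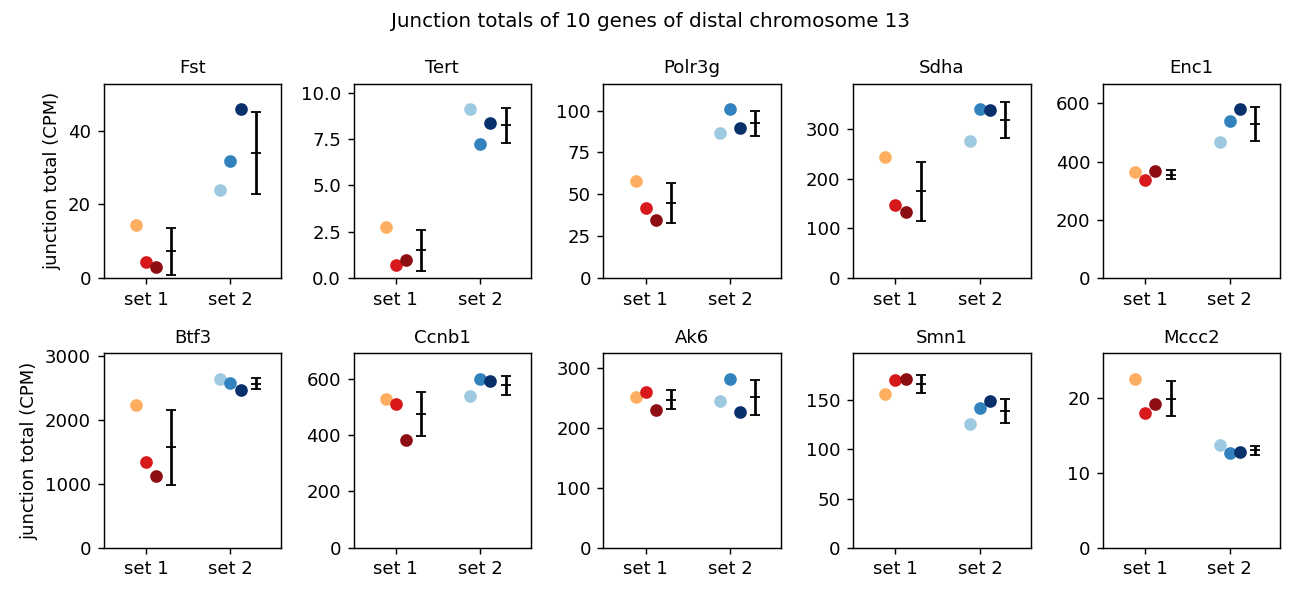
Junction totals in CPM for 10 distal genes, with the libraries of each set as points from left to right in the order of the table, and the mean ± SD (n = 3) as a bar beside them; every axis starts at 0. Set 1 lies below set 2 in Fst, Tert, Polr3g, Sdha, Enc1, Btf3 and Ccnb1, overlaps it in Ak6 and lies above it in Smn1 and Mccc2.

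Apart from Slc12a7, the 12 genes with the highest ratios lay close together along the chromosome. Ak6, a nuclear adenylate kinase, had 252, 260.1 and 229.7 CPM in set 1, against 244, 282 and 226 CPM in set 2, a log2 ratio of -0.02 ± 0.11 (SE). Its libraries of set 1 and set 2 overlapped. Smn1, which encodes the SMN protein of spliceosomal snRNP assembly, had 156, 171 and 172 CPM in set 1, against 126, 142 and 149.6 CPM in set 2, a log2 ratio of 0.26 ± 0.11 (SE). Mccc2, a subunit of a mitochondrial carboxylase of leucine breakdown, had 22.6, 18 and 19.2 CPM in set 1, against 13.7, 12.6 and 12.8 CPM in set 2, the highest log2 ratio of the measured genes at 0.57 ± 0.19 (SE). Both lay above set 2 in all 3 libraries. Serf1 stood at 0.23, Poc5 of the centriole at 0.16, and Naip2, whose reads could belong to its near-identical neighbours, at 0.08. Bdp1 of the polymerase III factor TFIIIB stood at 0.03, DNA polymerase kappa (Polk) and the transporter Slc12a7 at 0.01, Cenph at -0.01 and the checkpoint protein Rad17 at 0.

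Ordered by position, the 116 genes fell into 4 long stretches of low totals with 3 short ones between them, whose ends were drawn after the values were seen. The first long stretch ran from Ice1 to Sv2c (chr13:70606756-96132577), where 46 genes had a median log2 ratio of -0.74 and 45 of them were below 0. There the medians of libraries 1, 2 and 3 of set 1 were -0.34, -0.93 and -1.09 relative to set 2. The first short stretch, which begins with Poc5, held 4 genes at a median of 0.05. From Nsa2 to Map1b (chr13:97131843-99508209) 13 genes had a median of -0.51, and all 13 were below 0. The second short stretch, from Mccc2 to Ccnb1 (chr13:99948530-100785903), held 13 genes at a median of -0.01, with values from -0.30 to 0.57.

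The next gene measured after Ccnb1 was Slc30a5, and the 2 differed in their library values. Ccnb1, which encodes cyclin B1, had 529, 509.6 and 384 CPM in set 1, against 539.7, 601 and 594 CPM in set 2. Slc30a5 had 115, 51.7 and 44.5 CPM in set 1, against 142, 125 and 123 CPM in set 2. Set 1 was below set 2 in both, with a log2 ratio of -0.30 ± 0.12 (SE) for Ccnb1 and a linear ratio of 0.5 for Slc30a5. From Slc30a5 to Srek1ip1 (chr13:100802648-104834320) 12 genes had a median of -0.69, none above -0.49. The 3 genes from Ipo11 to Kif2a (chr13:106822956-107022114) lay at -0.11, with library 1 of set 1 at 0.30 and libraries 2 and 3 at -0.27 and -0.46. From Ndufaf2 to Zfp131 (chr13:108052589-119782910) 25 genes had a median of -0.56, and all 25 were below 0.

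Put together, the 96 genes of the long stretches had a median log2 ratio of -0.66, and 95 of them were below 0. The exception was Slc12a7, with 5.75, 5.93 and 5.66 CPM in set 1, against 5.3, 4.45 and 7.9 CPM in set 2. The 20 genes of the short stretches had a median of -0.01, with 12 below 0 and 8 above. A log2 ratio of -0.40 or lower was found in 86 of the 96 and in 0 of the 20, a split that the way the stretches were drawn sets in part. In the table as a whole 5.46% of genes were that low.

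**Figure D3:**
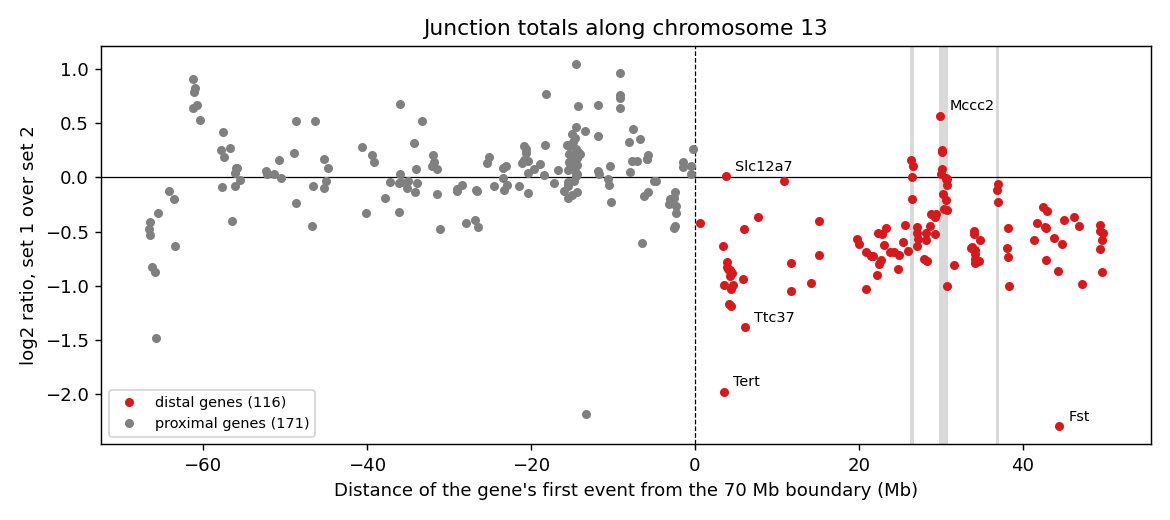
Log2 ratio of junction totals, set 1 over set 2, for 171 proximal and 116 distal genes of chromosome 13, by the distance of the gene's first event from the 70 Mb boundary in Mb. Grey bands mark the 3 short stretches; distal genes outside them centre on -0.66, and those inside on -0.01, with Fst at -2.30 and Mccc2 at 0.57 as the ends of the distal range.

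At the boundary the last 5 measured genes below it were Mtrr, Fastkd3, Papd7, Nsun2 and Med10. Their log2 ratios were 0.10, 0.14, 0.10, 0.04 and 0.26. The first 5 above it were Ice1 at -0.42, Lpcat1 at -0.64, Clptm1l at -0.99, Tert at -1.98 and Slc12a7 at 0.01. Med10, a Mediator subunit and the nearest gene below, had 249, 248 and 233 CPM in set 1, against 195, 202 and 212 CPM in set 2. Ice1, the nearest above and a subunit of the little elongation complex, had 22.4, 27.1 and 30 CPM in set 1, against 30, 38.4 and 38.7 CPM in set 2. Set 1 lay above set 2 for Med10 and reached the lowest library of set 2 for Ice1. Clptm1l, a membrane protein further into the region, had 98, 59.1 and 55.6 CPM in set 1, against 144, 141 and 128 CPM in set 2, with no overlap.

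The 171 measured genes of the proximal part had a median log2 ratio of 0.06, and the medians of the 19 other chromosomes in the table lay between -0.09 and 0.12. Neighbours on the same side of 0 also occurred in the proximal part. The measured genes from 2810429I04Rik to Pfkp all lay below 0, between -1.480 (Akr1c12) and -0.121 (Klf6). Those from Wdr37 to Zmynd11, which come next, all lay above, between 0.535 and 0.910. Blocks of 20 neighbouring measured genes were cut from the lowest base of each chromosome, and from the boundary in the distal region. Genes left over at the end were in no block, so the distal blocks end at base 112867642 and the proximal ones at 67137405. The 5 distal blocks had medians between -0.88 and -0.18. The 400 blocks elsewhere had medians between -0.32 and 0.20, of which 2 were at -0.20 or lower, against 4 of the 5 distal blocks. The distal region was chosen for its totals, so no test of that difference is given.

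The genes of the region were also taken by function, in 7 lists written with earlier results known. The list of RNA processing, translation and transcription had 27 measured genes, 25 of them below 0, with a median of -0.57, and limma called 2 of them lower, Polr3g and Ssbp2. Its best-read members were Btf3, Ak6, Nsa2, a ribosome biogenesis factor with 161 ± 59 CPM in set 1 and 223 ± 32 CPM in set 2, and Gpbp1 with 149 ± 46.3 CPM in set 1 and 216 ± 3.35 CPM in set 2 (SD, n = 3 each). The mitochondrial list had 9 genes, 8 below 0, at a median of -0.53, with Sdha called and Mccc2 the gene above 0. Of its members, Mrps36 had 319 ± 45.8 CPM in set 1 and 334 ± 40.7 CPM in set 2, and Ndufaf2, a complex I assembly factor, 61.2 ± 19.3 CPM in set 1 and 94 ± 4.85 CPM in set 2 (SD, n = 3 each). Beside these, the median over all 8285 measured genes was 0.01, with 47.7% below 0 and 0.471% called lower by limma. Over the 116 measured distal genes, from which all the lists are drawn, the median was -0.58, with 92.2% below 0 and 9.48% called lower.

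The list of DNA repair, telomere and cell cycle genes had 20 members, 18 of them below 0, at a median of -0.48, and Tert and Cetn3 were called lower. Its members in the short stretches ran from Ccnb1 at -0.30 to Poc5 at 0.16. Among them, the kinase Cdk7 had 111 ± 9.16 CPM in set 1 and 130.2 ± 28.7 CPM in set 2, and the kinesin Kif2a 138 ± 35.7 CPM in set 1 and 158 ± 14.8 CPM in set 2 (SD, n = 3 each). The sterol and lipid list had 6 genes, 5 below 0, at a median of -0.47, with 0 called. Hmgcs1, an enzyme of the mevalonate pathway, had 135 ± 13.9 CPM in set 1 and 206 ± 49.6 CPM in set 2 (SD, n = 3 each). Plpp1, a lipid phosphatase, stood at a log2 ratio of -0.46 and Col4a3bp, the ceramide transfer protein, at -0.20.

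The neuronal list had 7 measured genes of 10 in the table, all 7 below 0, at a median of -0.57, and Enc1 and Tbca were called lower. The synaptic vesicle protein Sv2c had 125, 92.1 and 71.3 CPM in set 1, against 107, 179 and 178 CPM in set 2, and the sets overlapped. The list of signalling, adhesion and matrix genes had 10 measured genes of 12, all 10 below 0, at a median of -0.74, with Fst and Clptm1l called. The cell adhesion protein Emb had 204, 99.9 and 91.2 CPM in set 1, against 252, 234 and 249 CPM in set 2. Rasa1, a Ras GTPase-activating protein, had 108, 43.2 and 34.4 CPM in set 1, against 98.2, 83.6 and 89.6 CPM in set 2, so that library 1 of set 1 was above all of set 2 there. Erbin stood at a log2 ratio of -0.65. The list of lysosome, vesicle traffic and proteolysis genes had 18 members, all 18 below 0, at a median of -0.69, with Pdcd6 and Atg10 called. Its best-read members were Tnpo1 at -0.34, Ipo11 at -0.11, Trappc13 of the TRAPP complex at -0.75, and Pdcd6. Tnpo1 and Ipo11 are import receptors, which the name of this list does not cover, though they are counted in it. By list, the medians ran from -0.74 to -0.47, beside -0.58 over all 116 distal genes. Of those 116 genes 9.48% were called lower, against 0.471% of all genes.

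Inclusion levels in the same region moved little between the sets. Of the 557 distal events with a mean of 20 or more reads, 506 (90.8%) had mean levels that differed by less than 0.05 between set 1 and set 2. The same was true of 91.8% of proximal events and 90.2% of events on the other chromosomes. The median absolute difference was 0.00733 in the distal region, 0.008 in the proximal part and 0.00833 on the other chromosomes. Among events with both forms well read, a level between 0.1 and 0.9 and 20 or more reads of the rarer form, it was 0.0272 over 88 distal events and 0.0237 over 5214 events of the other chromosomes. Most levels lay near the upper end of the scale, with 65.4% of the distal events at a mean level of 0.95 or higher. With limma on logit levels, 0 of 557 distal events passed an adjusted p of 0.05, where the share over all 39419 events was 0%. At an unadjusted p under 0.05 there were 16 (2.87%), against 2.97% of all events, and the logit of counts plus 0.5 also gave 0 calls, with 30 (5.39%) at an unadjusted p under 0.05, against 4.94% of all events under that setting. Events whose levels were held at an end of the scale enter this fit with no spread. Where the rarer form had at least 5 reads, limma called 0 of 159 distal events and 0 of all 12142 events. In that setting 13 distal events (8.18%) had an unadjusted p under 0.05, against 6.68% of all events.

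**Figure D4:**
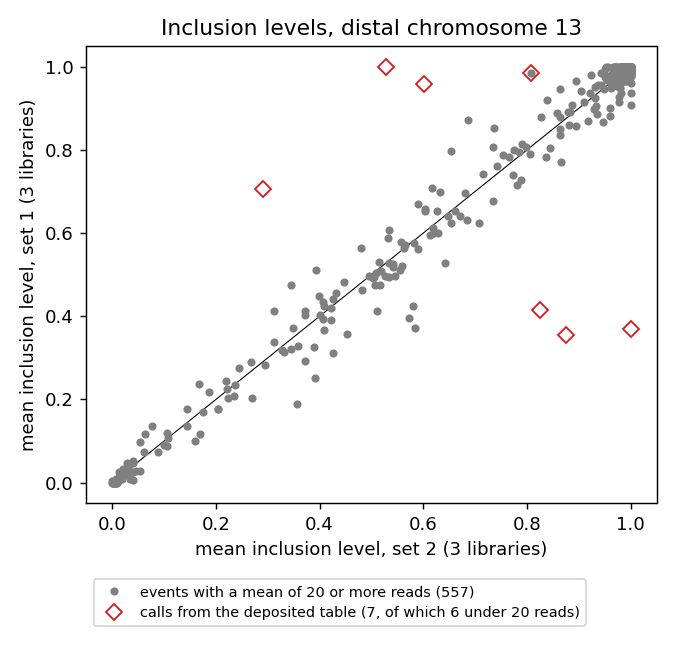
Mean inclusion level of distal events in set 1 (vertical axis) against set 2 (horizontal axis), each a share from 0 to 1 over 3 libraries, with the line of equal levels. Of the 557 events with a mean of 20 or more reads, 506 differ by less than 0.05; the 7 calls made from the authors' deposited table are marked as diamonds, and 6 of them have fewer reads.

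Both forms of an event were followed where the rarer one had a mean of 20 or more reads and the level lay between 0.1 and 0.9, which held for 88 events, or 43 when 1 event per gene was kept. In 38 of the 43 both the inclusion reads and the skipping reads had a log2 ratio below 0, in 2 both were above 0, and in 3 only the inclusion reads were below. The median log2 ratio was -0.54 for inclusion reads and -0.55 for skipping reads. The level was higher in set 1 in 18 events and lower in 25, by a median absolute difference of 0.024, and 32 of the 43 differed by less than 0.05. In Pdcd6, a calcium-binding adaptor protein, the inclusion reads of an alternative 5' splice site had a log2 ratio of -0.96 and its skipping reads one of -1.04. The level there was 0.763, 0.747 and 0.772 in set 1, against 0.771, 0.738 and 0.717 in set 2. In Sv2c a pair of mutually exclusive exons stood at 0.505 ± 0.019 in set 1 and 0.509 ± 0.0251 in set 2 (SD, n = 3 each), with log2 ratios of -0.68 and -0.66 for the 2 forms. In these 2 events the reads of both forms were lower to a similar degree and the levels of the sets overlapped, while 11 of the 43 differed by 0.05 or more.

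The exons printed above differed in this respect. The 164-base exon of the centromere protein gene Cenph, in the short stretch before Ccnb1, had levels of 0.884, 0.854 and 0.813 in set 1, against 0.882, 0.88 and 0.827 in set 2. Its total was level as well, with a log2 ratio of -0.01. The 122-base exon of Mocs2, a gene of molybdenum cofactor synthesis, had 0.641, 0.628 and 0.702 in set 1, against 0.606, 0.552 and 0.652 in set 2, and the sets overlapped while the gene's total stood at -0.62. The 78-base exon of Col4a3bp, whose length is a multiple of 3, had 0.675, 0.678 and 0.522 in set 1, against 0.723, 0.71 and 0.691 in set 2. All 3 libraries of set 1 were below set 2 there, by a mean of 0.083.

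The 5 largest differences among the 43 were those of Iqgap2, Trappc13, Mtx3, Tmem161b and Col4a3bp, with Ssbp2 next. The 18-base exon of Trappc13 had levels of 0.475, 0.48 and 0.578 in set 1, against 0.388, 0.399 and 0.393 in set 2, a difference of 0.118. Its inclusion reads had a log2 ratio of -0.47 and its skipping reads one of -1.13, so both forms were lower in set 1 and the skipping form more so. The authors' adjusted p for it in their deposited table was 0.118. The 90-base exon of Ssbp2, a cofactor of LIM-domain transcription complexes, had 0.658, 0.695 and 0.66 in set 1, against 0.587, 0.626 and 0.553 in set 2, with an adjusted p of 0.154 in the authors' deposited table. In both genes the sets did not overlap, and neither event had an adjusted p under 0.05 in that table. A pair of exons of Iqgap2, a scaffold protein of the cytoskeleton, had 0.497, 0.326 and 0.367 in set 1, against 0.635, 0.484 and 0.601 in set 2, from a mean of 54 reads, and the sets overlapped. Mtx3, a metaxin of the mitochondrial outer membrane, had a pair of exons at 0.359, 0.296 and 0.281 in set 1, against 0.346, 0.443 and 0.487 in set 2. An alternative 5' splice site of Tmem161b had 0.466, 0.477 and 0.297 in set 1, against 0.294, 0.357 and 0.288 in set 2. The sets overlapped in both. The 74-base exon of Ccnh (cyclin H) had 0.861, 0.891 and 0.887 in set 1, against 0.846, 0.817 and 0.822 in set 2, a difference of 0.0513.

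**Figure D5:**
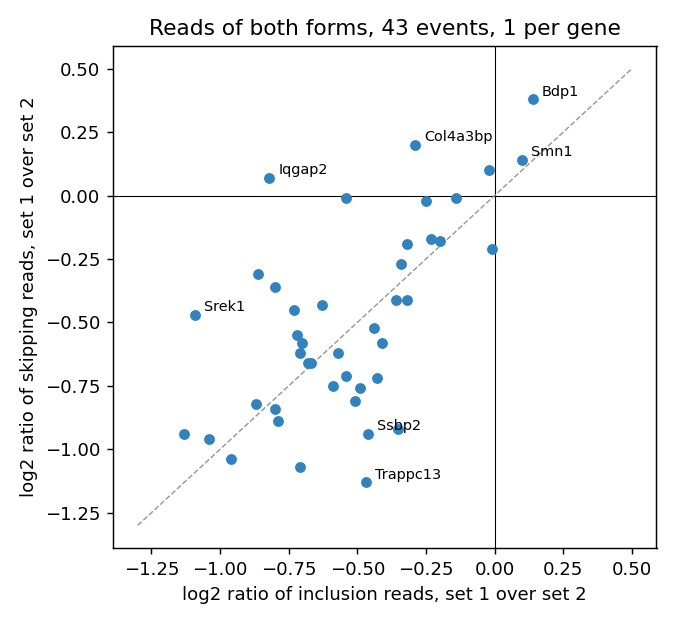
Log2 ratio of skipping reads (vertical axis) against that of inclusion reads (horizontal axis), set 1 over set 2, for 43 distal events with both forms well read, 1 per gene; the dashed line marks equal ratios, that is, an unchanged level. In 38 events both ratios are below 0; points off the line are events whose level differed, among them Iqgap2, Trappc13, Srek1, Col4a3bp and Ssbp2.

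An adjusted p under 0.05 in the authors' deposited table together with a change of 0.10 or more, a threshold set here, gave 7 distal events (1.1%), where the share over all events was 0.645%. In 6 of the 7 the mean was under 20 reads. Among events with a mean of 20 or more reads, the same rule gave 1 of 557 distal events. Over all events with that many reads it gave 171 of 39419, so the larger distal share was not seen there. The 7 lay in 4 genes and several share reads. In Fam172a, the exon printed above was called in both of its forms, which use the same skipping junction. It was read 1, 0 and 0 times in set 1, against 10, 4 and 5 times in set 2, while the longer form was included in 39, 48 and 39 reads of set 1, against 63, 47 and 43 of set 2. The level of the longer form was 0.951, 1 and 1 in set 1, against 0.759, 0.855 and 0.811 in set 2, with a difference of 0.175 and an adjusted p of 0.00026 in the authors' deposited table. That of the shorter form was 0.873, 1 and 1 in set 1, against 0.508, 0.682 and 0.616 in set 2. The 192 bases of the longer form are a multiple of 3 and the 112 bases of the shorter are not. With limma the longer form had an adjusted p of 0.773.

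The other 3 genes rest on few reads. The 166-base exon of Fam151b was included in 6, 1 and 4 reads and skipped in 0, 0 and 0 reads of set 1, against 3, 5 and 9 inclusion and 4, 1 and 3 skipping reads of set 2. Set 1 had 11 reads of this event in all, against 25 in set 2. In Adamts6, a secreted metalloprotease, an alternative 5' splice site and an 89-base exon that end at the same base (chr13:104444954-104445704 and chr13:104445616-104445704) share a skipping junction with 7, 4 and 6 reads in set 1, against 1, 0 and 1 reads in set 2. Their levels were 0.3, 0.467 and 0.294 in set 1, against 0.846, 1 and 0.778 in set 2 for the splice site, and 0.35, 0.44 and 0.456 in set 1, against 0.715, 1 and 0.759 in set 2 for the exon. Both lie outside the coding sequence of the annotation. The 103-base coding exon of Adamts6 printed above went the other way, with 0.372, 0.748 and 1 in set 1, against 0.64, 0.229 and 0 in set 2, from a mean of 4.17 reads, and the sets overlapped. For the noncoding gene 3830408C21Rik (chr13:107031724-107031984) the levels were 0.111, 1 and 0 in set 1, against 1, 1 and 1 in set 2, on 15 reads in set 1 and 6 in set 2, so that library 2 of set 1 stood with set 2. The splice site of Adamts6 had 35 reads in set 1 and 25 in set 2, its 89-base exon 36 and 14, and its coding exon 11 and 14. Neither Adamts6 nor 3830408C21Rik had enough reads to be measured for its total.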

How the data were processed

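N2a RNA was isolated with Trizol and libraries were built with NEBNext Ultra RNA reagents, which do not mark strand, per the labels' protocols. The build mm10 and the tools HISAT2 2.1.0, Bowtie2 2.2.3 and HTSeq 0.6.0 are named, without their roles, in the submitters' processing notes. The deposited table has the columns of rMATS output, per the file headers: whole-number counts of inclusion and skipping junction reads for 3 libraries in each of 2 sets, form lengths, inclusion levels as fractions, a p-value, an adjusted p (FDR) and the difference of mean levels. Its version and annotation are not stated in the labels or headers. The labels do not say that libraries came from separate cultures, so p-values measure the spread between these libraries.

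The members and gene lists were chosen with earlier results of these data known. Each gene was represented by its event with the most reads (mean of 20 or more), counts were scaled by the library sum over these genes (CPM), and log2(CPM + 1) was fitted with limma 3.58.1 (R 4.3.3; moderated, with trend) over all 8285 genes with Benjamini-Hochberg adjustment. Levels were held between 0.01 and 0.99, put on the logit scale and fitted likewise over 39419 events. A call from the authors' deposited table is their adjusted p under 0.05 with a change of 0.10 or more, a threshold set here. The fits were tested on simulated data, where the one on levels missed most changed events when all events entered and few when only those with 5 or more reads of the rarer form did. Inclusion levels recomputed from the deposited counts differed from the authors' by at most 0.0005. Starts were made 1-based. Of all events, 99.66% lay inside the GENCODE vM21 gene.

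Genes were named by rule: Hnrnpdl, the calls from the authors' table, the 12 lowest and 12 highest ratios, the 10 with the most reads, 5 on each side of the boundary, and up to 4 per list; 1 gene that the rule names is not reported here. Genes outside it, such as those of the limma call and the events with both forms read, were chosen after their values were seen. Alternatives are given in the closing section.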

Additional observations from a re-analysis of the deposited data

How the results depend on the processing

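The median log2 ratio of distal totals was -0.58 and lay between -0.80 and -0.46 when 1 library was left out, between -0.60 and -0.50 under the other scalings, pseudocount, read minimums and sums, and at -0.52 and -0.54 with the boundary at 65 and 75 Mb. The count of distal genes called by limma was 11, where 0.471% of all genes were called lower. It was 7 with a mean count of 100 or more (0.386% of all genes called lower) and between 0 and 64 with 1 library left out (0.0844% to 1.98%). Without the first-listed library of each set, a setting chosen after seeing the data, it was 70 (2.45%). The cause was not tested. Sums over all events gave 9 calls (0.539% of all genes called lower), of which 7 were shared with the 11. Distal inclusion events called by limma numbered 0 of 557, where 0 of 39419 events were called in all. With 1 library left out, between 0 and 1 of 557 were called, against 4 to 42 of 39419. Without a count filter 1 of 635 distal events was called, against 18 of 45421. Without the first-listed library of each set it was 1 of 557, against 28 of 39419. Of the 7 calls from the authors' table, 1 reached a mean count of 20 or more, against 171 of the 294 calls over all events. The median absolute difference in level, 0.00733, was 0.00933 without a filter and 0.00467 at a mean of 100 or more reads, a set of fewer events. For 51 named genes, 650 log2 ratios under the alternatives gave 0 called values of opposite sign, 46 no longer past the threshold and 56 that moved by more than their error. No paired analysis was possible because the columns carry no replicate number. Depth limits the 12 genes under 20 reads, for which no ratio was given.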
